A study of Mus musculus with 2 samples.

Results

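The 32 genes described here are feedback regulators and targets of NF-kB, the family of transcription factors that carries inflammatory signals into the nucleus. They were taken as a fixed list of gene symbols that was chosen with earlier results of these data known. All 32 were found among the 32285 genes of the count tables. They comprise 5 NF-kB subunits, 3 cytoplasmic inhibitors, 3 nuclear inhibitor-like regulators, 5 brakes on the signal or on mRNA stability, 4 signal transducers, 8 survival and stress targets and 4 other targets.

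Single-cell RNA-seq was done on live CD45+ cells, that is leukocytes, from liver tumours of C57BL/6 mice. In the AKK group the mice were fed Akk (Akkermansia muciniphila, a gut bacterium) at 5e9 colony-forming units, and in the PBS group they received phosphate-buffered saline. Both groups ate the MCD diet (deficient in methionine and choline) and carried tumours grown in the liver from implanted RIL-175 cells, a mouse hepatocellular carcinoma line labelled with luciferase. In both, feeding by mouth began 2 weeks before the diet, the diet preceded implantation by 2 weeks, and feeding paused for 6 days after surgery. The MCD diet stands in for fatty liver disease and the tumour is a single implanted line. Each group was 1 library, the sources used here do not give the number of mice behind it, and the groups were not tested against each other. Every interval below is a 95% interval for counting error only, and "higher" and "lower" describe these libraries.

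NF-kB dimers are held in the cytoplasm by IkB proteins. When Toll-like, interleukin-1 or tumour necrosis factor receptors are engaged, kinases mark IkB for destruction and the dimers enter the nucleus. Among the first genes they switch on are their own inhibitors, so that mRNAs such as Nfkbia and Tnfaip3 serve as a running readout of recent signalling. In tumours, myeloid cells use the pathway to make inflammatory cytokines and to survive.

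The AKK library held 6610 barcodes and 74495998 UMIs (unique molecular identifiers, counts of transcripts) and the PBS library 5088 barcodes and 64731604 UMIs. After filtering, 6177 AKK and 4646 PBS cells were kept, with medians of 6369 AKK and 6736 PBS UMIs. Barcodes present in both libraries numbered 8. Cells were clustered without the 32 genes and placed in classes by their markers. In each of the 9 classes with at least 50 cells in both libraries, the summed own markers of the class were higher than in the other 8 classes together. The classes were named by these same markers, so this does not test the names. The leukocyte gene Ptprc (CD45) reached 412 CPM or more in the AKK library and 363 CPM or more in the PBS library in 8 of these classes. CPM are counts of UMIs scaled to the same class total in both libraries (counts per 1e6). In the tumour/epithelial-like class, a type that a CD45+ gate is meant to leave out, Ptprc was at 45.8 CPM in AKK and 28.0 CPM in PBS cells.

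Regulatory sequences of 4 genes and a microRNA are printed because the results below turn on these genes. The promoters are the 250 bases before the RefSeq start on GRCm38.p6, read 5′ to 3′ on the strand of the gene, with matches to the kappaB consensus (the 10-base NF-kB binding motif, searched on both strands) in capitals. Nfkbia encodes IkB-alpha, the main cytoplasmic inhibitor, and its promoter (chr12:55492648-55492897, minus strand) held 1 match, which began 29 bases before the start. Tnfaip3 encodes A20, an enzyme that edits ubiquitin and shuts the signal off, and its first promoter window (chr10:19015411-19015660, minus strand) held 2 matches, at 125 and 12 bases. Nfkbie encodes IkB-epsilon and had 1 match at 106 bases (chr17:45555450-45555699, plus strand). Cflar encodes c-FLIP, which blocks caspase-8, and had none in the window (chr1:58711241-58711490, plus strand).
Nfkbia promoter: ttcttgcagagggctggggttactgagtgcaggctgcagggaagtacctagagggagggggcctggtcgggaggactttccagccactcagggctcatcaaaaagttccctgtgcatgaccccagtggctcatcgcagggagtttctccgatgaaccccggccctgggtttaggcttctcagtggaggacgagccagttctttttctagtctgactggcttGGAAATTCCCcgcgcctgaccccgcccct
Tnfaip3 promoter: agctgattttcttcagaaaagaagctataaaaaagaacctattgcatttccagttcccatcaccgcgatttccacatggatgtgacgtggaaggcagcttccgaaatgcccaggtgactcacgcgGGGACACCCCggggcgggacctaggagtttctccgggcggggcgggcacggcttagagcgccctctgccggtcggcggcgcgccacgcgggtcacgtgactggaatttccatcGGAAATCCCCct
Nfkbie promoter: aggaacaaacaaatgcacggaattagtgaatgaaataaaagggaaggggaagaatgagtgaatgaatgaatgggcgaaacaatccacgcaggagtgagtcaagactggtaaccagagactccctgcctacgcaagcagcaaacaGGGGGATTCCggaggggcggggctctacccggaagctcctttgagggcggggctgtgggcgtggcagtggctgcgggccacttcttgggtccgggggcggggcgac
Cflar promoter: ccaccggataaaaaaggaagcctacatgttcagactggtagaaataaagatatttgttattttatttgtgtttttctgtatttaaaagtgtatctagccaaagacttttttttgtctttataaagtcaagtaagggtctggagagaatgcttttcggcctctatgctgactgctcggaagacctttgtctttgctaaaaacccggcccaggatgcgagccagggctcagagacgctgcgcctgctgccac

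Mir155hg is the non-coding transcript (ENSMUSG00000097418, chr16:84703167-84715245 on GRCm38, plus strand) from which microRNA-155, a regulator of inflammation in leukocytes, is cut. Both mature arms, at chr16:84714143-84714165 and chr16:84714182-84714202, lie inside its span. Their RefSeq sequences are given with the seed (bases 2 to 8), which pairs with target mRNAs, in capitals. The libraries measured the host transcript and not the mature microRNA.
mmu-miR-155-5p: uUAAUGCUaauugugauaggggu
mmu-miR-155-3p: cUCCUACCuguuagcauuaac

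Of the 32 genes, 27 had a RefSeq promoter entry, and 12 of these 27 (44.4%) held the kappaB consensus between 250 bases before and 50 bases after a start. Over all genes with an entry it was 2581 of 27025 (9.55%). A match describes these letters and does not show binding.

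Neutrophil-like cells gave the largest share of their UMIs to the 32 genes among the compared classes, 2.86% in AKK and 2.79% in PBS cells (ratio 1.02, 1.02 to 1.03). In 3 other myeloid classes the share was lower in the AKK library. Classical monocyte-like cells had 1.22% in AKK and 1.76% in PBS cells (ratio 0.691, 0.684 to 0.698). Macrophage-like cells had 1.44% in AKK and 1.83% in PBS (ratio 0.789, 0.784 to 0.795), and cDC2-like cells, type 2 conventional dendritic cells, 0.980% in AKK and 1.33% in PBS (ratio 0.738, 0.726 to 0.750). The median monocyte-like cell differed in the same direction, at 1.31% in the AKK library (25th to 75th percentile 0.891% to 1.80%) and 2.00% in the PBS library (1.68% to 2.41%).

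Lymphoid classes differed less. T-like cells had 0.856% in AKK and 0.867% in PBS cells (ratio 0.988). B-like cells had 0.695% in AKK and 0.673% in PBS (ratio 1.03), NK/ILC1-like cells 1.01% in AKK and 0.909% in PBS (ratio 1.11, 1.09 to 1.13) and plasma-like cells 0.401% in AKK and 0.363% in PBS (ratio 1.11, 1.07 to 1.14). Tumour/epithelial-like cells had the lowest shares, 0.264% in AKK and 0.316% in PBS cells (ratio 0.835, 0.821 to 0.849). Over all kept cells the share was 1.20% in AKK and 1.42% in PBS cells, a value that also moves with the classes' sizes. By single genes over all kept cells 2 of 32 were lower past the 1.5-fold used below and 0 higher, beside 10.9% and 8.49% of all genes. Neutrophil-like cells, which had the highest share among the compared classes, were 41.6% of kept AKK and 45.6% of kept PBS cells.

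**Figure D1:**
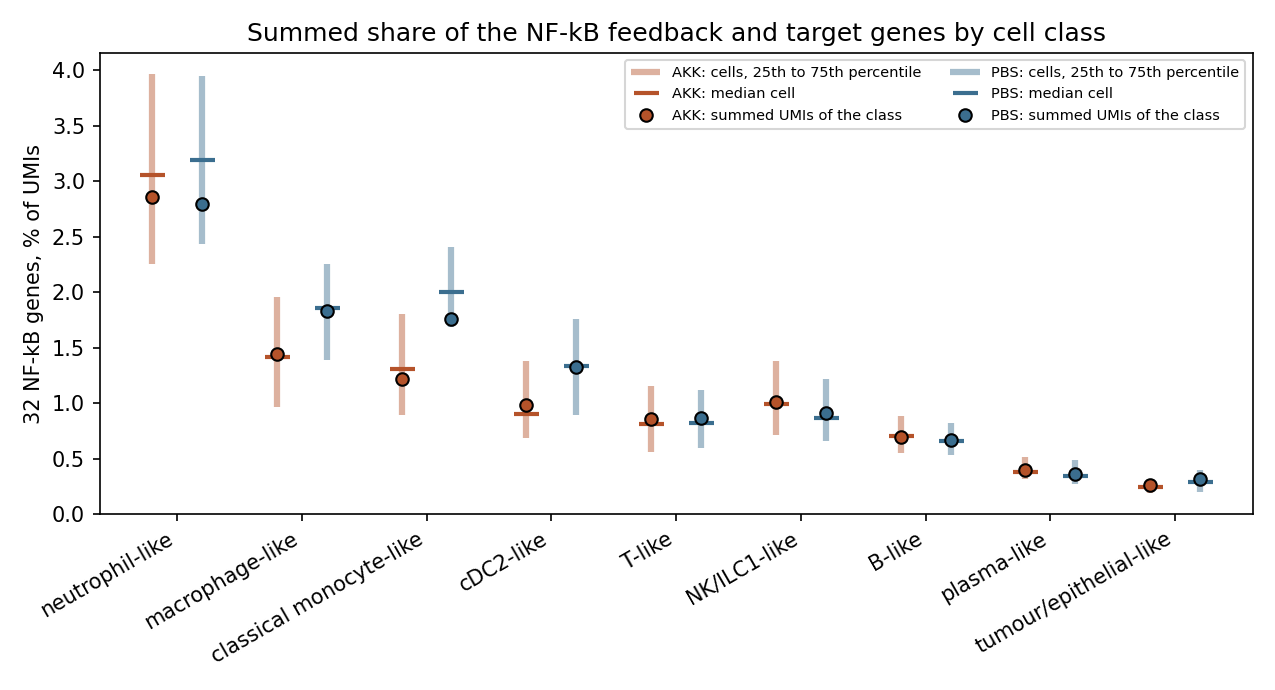
The vertical axis is the percentage of UMIs from the 32 NF-kB genes, and the horizontal axis the 9 compared cell classes, with AKK left of PBS. Points are the summed UMIs of a class, dashes the median cell and bars the 25th to 75th percentile of cells. Monocyte-like cells stand at 1.22% in AKK and 1.76% in PBS cells, and neutrophil-like cells at 2.86% in AKK and 2.79% in PBS.

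Classes with fewer cells have levels only. Nonclassical monocyte-like cells (51 AKK and 10 PBS cells) gave 1.74% in AKK and 2.24% in PBS cells, and mature DC-like cells (33 AKK and 12 PBS cells), the migrating dendritic cells, 1.87% in AKK and 2.02% in PBS. The values were 1.15% in AKK and 1.16% in PBS for gamma-delta T-like, 0.702% in AKK and 0.741% in PBS for cDC1-like, and 0.566% in AKK and 0.514% in PBS for pDC-like cells. Basophil/mast-like cells had 1.84% in AKK and 0.833% in PBS cells, but the AKK cells were mostly of a basophil cluster and the PBS cells mostly of a mast cell cluster. Mature DC-like cells had the highest Relb level of any class, 509 CPM in AKK and 434 CPM in PBS cells, and the highest Nfkb1 level, 2842 CPM in AKK and 3799 CPM in PBS. Relb encodes a subunit of the non-canonical pathway.

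Single genes were read against a fold of 1.5 in either direction, for those with at least 20 UMIs over both libraries. The share of all genes given beside a count uses the same minimum and was not matched to the described genes by UMI count. In monocyte-like cells 16 of 32 genes (50%) were at least 1.5-fold lower in the AKK library, and 0 were as much higher. Of all 11276 genes measured in that class, 10.4% were as much lower and 14.2% as much higher. In cDC2-like cells 10 of 32 (31.3%) were lower and 2 higher, against 7.46% and 16.7% of all genes. With each cell classed by its own markers these counts were 7 lower and 0 higher. In macrophage-like cells 7 of 32 (21.9%) were lower and 0 higher, against 9.61% and 10.3%. In the median over the 32 genes the log2 ratio was -0.57 in monocyte-like, -0.28 in macrophage-like and -0.22 in cDC2-like cells. Over all measured genes it was 0.14, 0.11 and 0.12 in these classes. Relative to the median of well-counted genes, which lay 0.13 above 0 in both monocyte-like and macrophage-like cells, 20 and 8 of the 32 genes were lower.

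**Figure D2:**
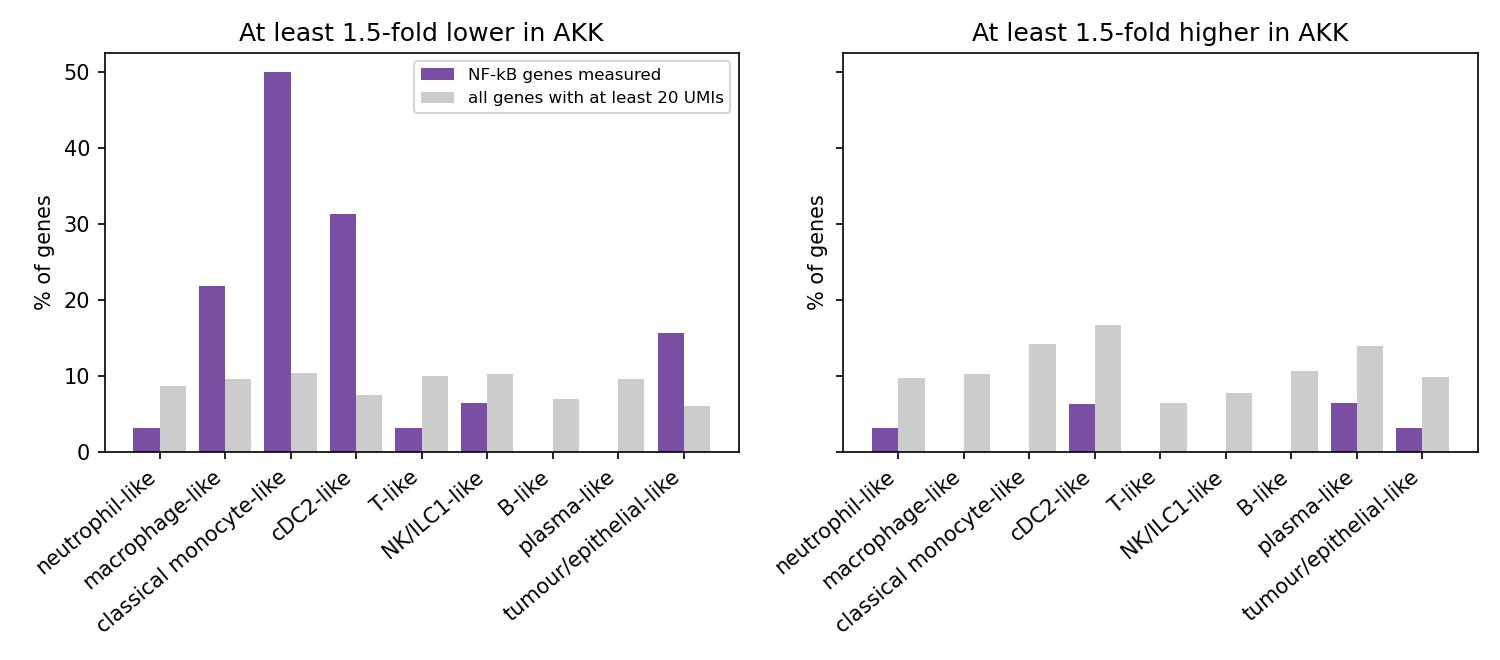
The bars give the percentage of genes at least 1.5-fold lower (left panel) or higher (right panel) in the AKK than in the PBS library. They are shown by cell class, for the NF-kB genes and for all genes with at least 20 UMIs. On the lower side monocyte-like cells have 50% of the NF-kB genes beside 10.4% of all genes, and neutrophil-like cells 3.13% beside 8.65%.

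Among the subunits in monocyte-like cells, Nfkb1 (p105, the precursor of p50) stood apart. It was at 830 CPM in AKK and 1784 CPM in PBS cells (ratio 0.465, 0.450 to 0.482). Relb was at 65.6 CPM in AKK and 91.0 CPM in PBS (ratio 0.721) and Nfkb2, the p100 precursor of p52, at 63.6 CPM in AKK and 75.2 CPM in PBS (ratio 0.845), both short of 1.5-fold. Rel (c-Rel) had 552 CPM in AKK and 517 CPM in PBS (ratio 1.07, 1.01 to 1.12) and Rela (p65) 74.2 CPM in AKK and 69.9 CPM in PBS (ratio 1.06, 0.922 to 1.22). Both ratios fall below 1 when scaled to the median of all genes. In macrophage-like cells Nfkb1 had a ratio of 0.724 (1230 CPM in AKK and 1699 CPM in PBS) and Rel of 1.25 (728 CPM in AKK and 583 CPM in PBS), and 0 of 5 subunits passed 1.5-fold.

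The cytoplasmic inhibitors were the role with the lowest summed level relative to PBS in monocyte-like cells, 1516 CPM in AKK and 3208 CPM in PBS cells (ratio 0.473, 0.461 to 0.485). Nfkbia (ENSMUSG00000021025) was at 1346 CPM in AKK and 2926 CPM in PBS cells (ratio 0.460, 0.448 to 0.473). In macrophage-like cells it was at 1679 CPM in AKK and 2737 CPM in PBS (ratio 0.614, 0.601 to 0.626), and in cDC2-like cells at 458 CPM in AKK and 718 CPM in PBS (ratio 0.638). In neutrophil-like cells the 2 levels were nearly the same, 4763 CPM in AKK and 4785 CPM in PBS cells (ratio 0.995, 0.984 to 1.01). Nfkbie passed 1.5-fold in monocyte-like cells, at 109 CPM in AKK and 194 CPM in PBS (ratio 0.560, 0.507 to 0.619). Nfkbib, which encodes IkB-beta, did not pass, at 62.1 CPM in AKK and 87.9 CPM in PBS (ratio 0.706).

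Among the nuclear regulators Nfkbiz, which encodes IkB-zeta and assists secondary targets such as Il6, was the lower one. In monocyte-like cells it was at 514 CPM in AKK and 960 CPM in PBS cells (ratio 0.536, 0.512 to 0.561), and in macrophage-like cells at 741 CPM in AKK and 1112 CPM in PBS (ratio 0.666, 0.646 to 0.687). Bcl3, a co-regulator of p50 and p52 dimers, went the other way, with 122 CPM in AKK and 94.0 CPM in PBS monocyte-like cells (ratio 1.29, 1.15 to 1.45) and 87.8 CPM in AKK and 57.6 CPM in PBS cDC2-like cells (ratio 1.52, 1.22 to 1.91, short of 1.5-fold when scaled to the median of all genes). Nfkbid, which encodes IkB-NS, was at 98.5 CPM in AKK and 109 CPM in PBS monocyte-like cells (ratio 0.904).

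The brakes did not differ in 1 direction in monocyte-like cells. Tnfaip3 was at 387 CPM in AKK and 714 CPM in PBS cells (ratio 0.543, 0.515 to 0.572). Its partner Tnip1 (ABIN-1) was at 81.6 CPM in AKK and 197 CPM in PBS (ratio 0.415), the related Tnip3 at 39.1 CPM in AKK and 63.5 CPM in PBS (ratio 0.616), and Irak3 (IRAK-M), which damps Toll-like receptor signals, at 78.4 CPM in AKK and 152 CPM in PBS (ratio 0.516). All 4 passed 1.5-fold. Zfp36, whose product tristetraprolin speeds decay of cytokine mRNAs, was at 1421 CPM in AKK and 1071 CPM in PBS cells (ratio 1.33, 1.28 to 1.37), the highest ratio among the 32 genes in this class. With the mean over cells in place of summed UMIs Zfp36 alone passed 1.5-fold upward. In macrophage-like cells Zfp36 was at 1015 CPM in AKK and 1289 CPM in PBS (ratio 0.788, 0.766 to 0.809), on the other side of 1.

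Of the transducers, Malt1, the protease of the complex that links antigen and C-type lectin receptors to NF-kB, was at 931 CPM in AKK and 1910 CPM in PBS monocyte-like cells (ratio 0.488, 0.472 to 0.504). In cDC2-like cells it held the most UMIs of the 32 genes, at 2089 CPM in AKK and 3858 CPM in PBS (ratio 0.541, 0.524 to 0.559). Without Malt1 the cDC2-like ratio of the summed share is 0.818. Traf1, an adaptor of TNF receptors, had 44.2 CPM in AKK and 104 CPM in PBS monocyte-like cells (ratio 0.426) and 81.3 CPM in AKK and 151 CPM in PBS cDC2-like cells (ratio 0.538). Map3k8 (TPL2), the kinase that links the pathway to ERK, passed 1.5-fold in macrophage-like cells, at 59.1 CPM in AKK and 91.8 CPM in PBS (ratio 0.644), but was at 0.932 in monocyte-like cells. Irak2, a kinase of the interleukin-1 receptor complex, was short of 1.5-fold in monocyte-like (0.806) and macrophage-like cells (0.922).

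Survival genes split. Cflar was at 186 CPM in AKK and 499 CPM in PBS monocyte-like cells (ratio 0.373, 0.348 to 0.401), at 260 CPM in AKK and 435 CPM in PBS macrophage-like cells (ratio 0.597) and at 77.5 CPM in AKK and 145 CPM in PBS cDC2-like cells (ratio 0.536). The Bcl-2 relatives Bcl2a1b and Bcl2a1d had ratios of 0.415 (82.6 CPM in AKK and 199 CPM in PBS) and 0.368 (47.7 CPM in AKK and 130 CPM in PBS) in monocyte-like cells. Their transcripts are 99.1% identical over 817 aligned bases, so UMIs of one can be assigned to the other and each value is uncertain. Sod2, the mitochondrial superoxide dismutase, was at 147 CPM in AKK and 252 CPM in PBS (ratio 0.583). Birc3 (cIAP2) was at 420 CPM in AKK and 423 CPM in PBS monocyte-like cells (ratio 0.993, 0.937 to 1.05) and at 244 CPM in both libraries in macrophage-like cells. Pim1, a pro-survival kinase, had 1965 CPM in AKK and 1778 CPM in PBS monocyte-like cells (ratio 1.11). Ier3 (0.851) and Gadd45b (0.690), stress-response genes, were short of 1.5-fold there.

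Mir155hg had the lowest ratio of the 32 genes in monocyte-like, macrophage-like, cDC2-like and T-like cells. Its levels were 39.6 CPM in AKK and 155 CPM in PBS monocyte-like cells, from 235 AKK and 819 PBS UMIs (ratio 0.255, 0.220 to 0.295). They were 87.4 CPM in AKK and 180 CPM in PBS macrophage-like cells (ratio 0.485, 0.445 to 0.529), 21.6 CPM in AKK and 64.1 CPM in PBS cDC2-like cells (ratio 0.338, 0.248 to 0.456) and 90.8 CPM in AKK and 143 CPM in PBS T-like cells (ratio 0.635, 0.571 to 0.705). In neutrophil-like cells it was at 65.3 CPM in AKK and 46.9 CPM in PBS (ratio 1.39, 1.25 to 1.55). Tnfaip2, an inflammation-induced gene, had 307 CPM in AKK and 435 CPM in PBS monocyte-like cells (ratio 0.705), the urokinase receptor gene Plaur 441 CPM in AKK and 514 CPM in PBS (ratio 0.859) and the actin-linked Marcksl1 84.7 CPM in AKK and 129 CPM in PBS (ratio 0.655). Of these 3 only Marcksl1 passed 1.5-fold.

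**Figure D3:**
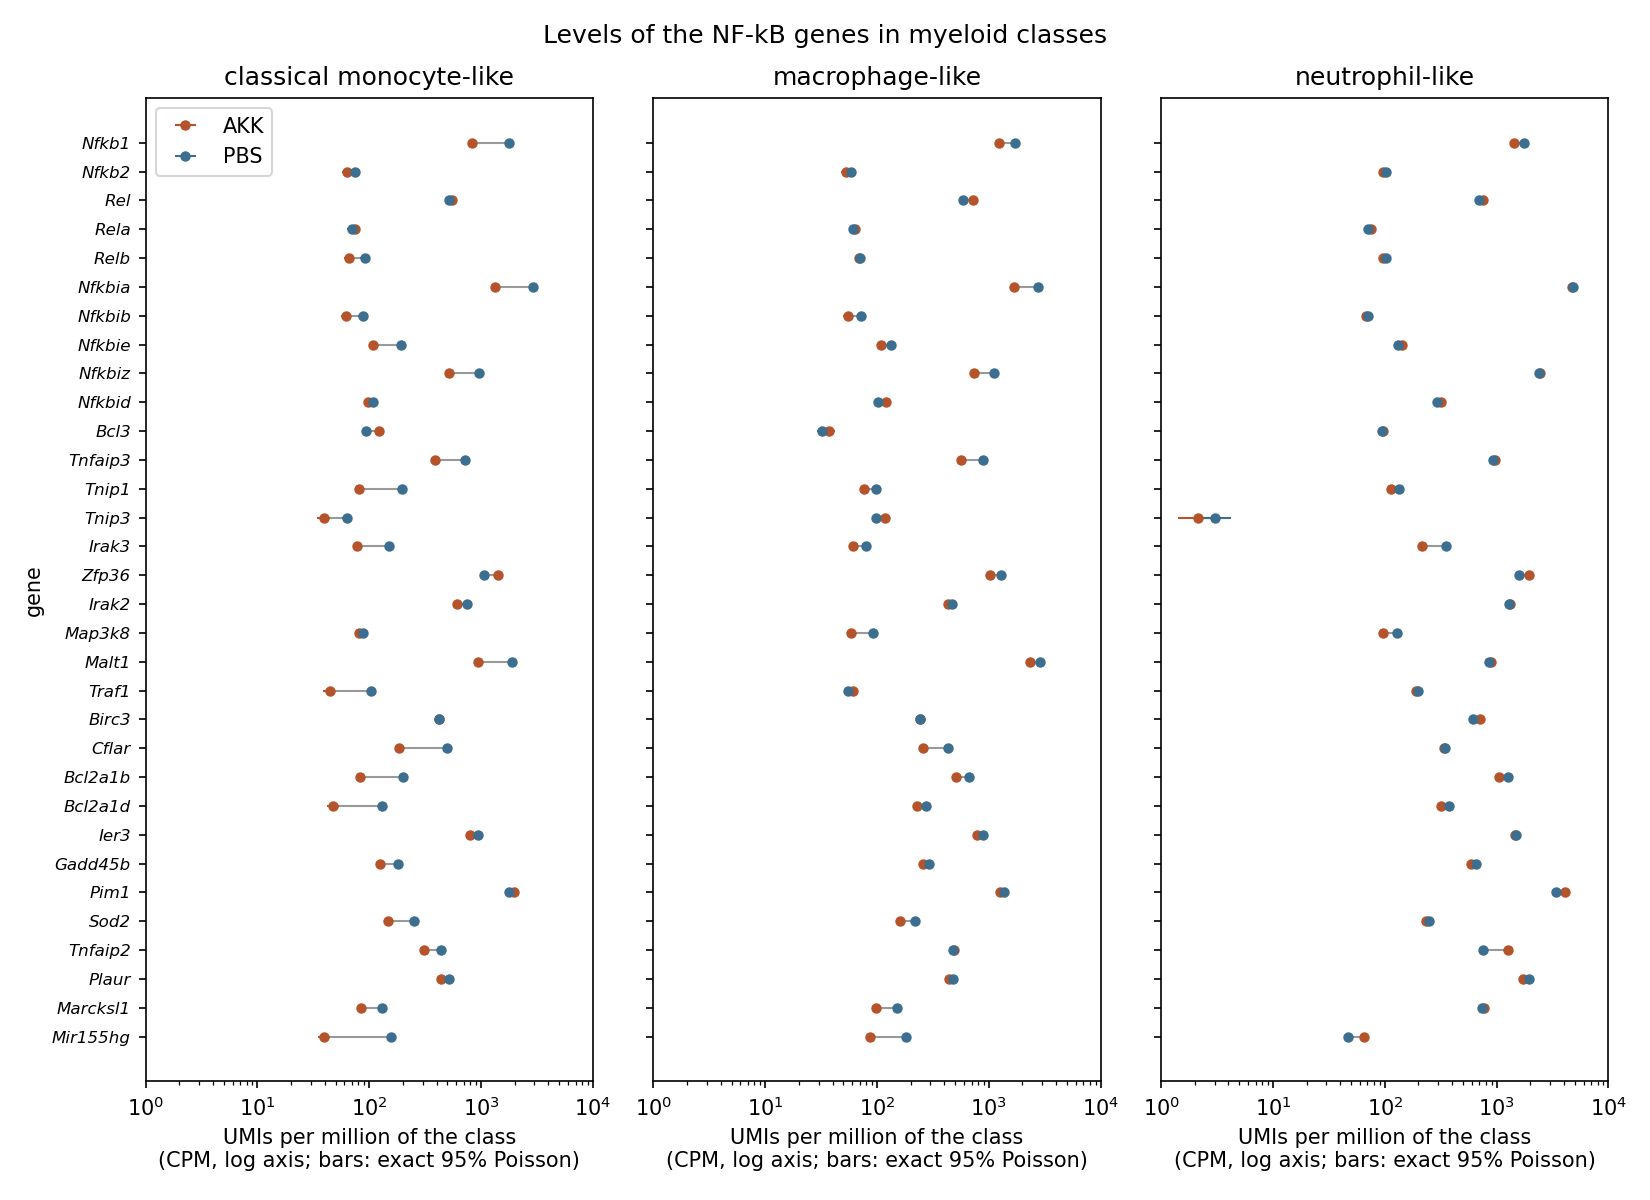
Each row is 1 of the 32 genes and the horizontal axis its level in CPM of the class, on a log axis, in 3 myeloid classes. Points are libraries and bars exact 95% Poisson intervals. In monocyte-like cells Nfkbia stands at 1346 CPM in AKK and 2926 CPM in PBS, and in neutrophil-like cells at 4763 CPM in AKK and 4785 CPM in PBS.

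In neutrophil-like cells 30 of 32 genes lay within 1.5-fold. Tnfaip2 was higher, at 1255 CPM in AKK and 751 CPM in PBS cells (ratio 1.67, 1.63 to 1.71). Irak3 was lower, at 215 CPM in AKK and 356 CPM in PBS (ratio 0.604, 0.575 to 0.634). For each direction 1 of 32 genes is 3.13%, beside 9.74% of all genes higher and 8.65% lower. Nfkbiz was at 2441 CPM in AKK and 2403 CPM in PBS (ratio 1.02), Tnfaip3 at 964 CPM in AKK and 935 CPM in PBS (ratio 1.03), Nfkb1 at 1416 CPM in AKK and 1766 CPM in PBS (ratio 0.801) and Zfp36 at 1932 CPM in AKK and 1595 CPM in PBS (ratio 1.21). Clusters differed beneath the near equality of the summed share. In 4 of the 6 neutrophil-like clusters with at least 100 cells in each library the share was lower in the AKK library. In the other 2, c1 and c7, it was higher, at 3.99% in AKK and 3.72% in PBS cells for c1 and at 3.96% in AKK and 3.74% in PBS for c7. Cluster c1 was 6.19% of AKK and 18.5% of PBS neutrophil-like cells, and c7 18.2% in AKK and 5.43% in PBS. With clusters weighted alike in both libraries the ratio of the summed share is 0.960, and Tnfaip2 no longer passes 1.5-fold. The median cell also had 3.06% in AKK and 3.19% in PBS cells, so these data give the neutrophil-like share no direction.

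**Figure D4:**
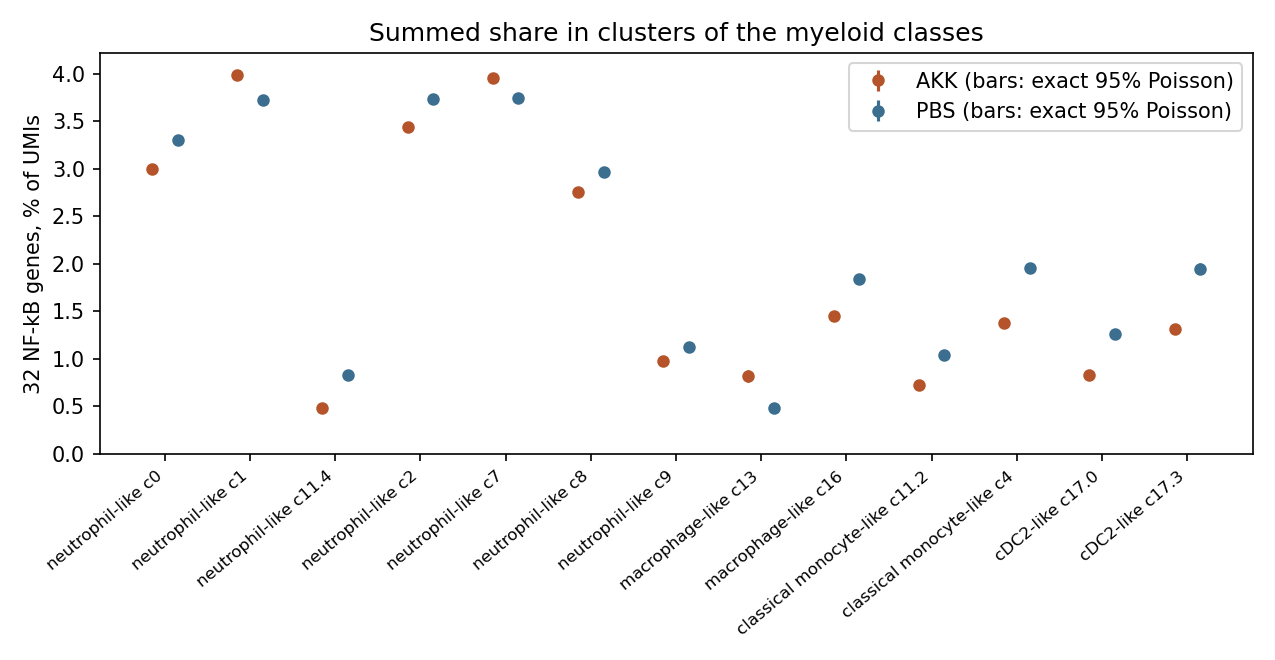
The vertical axis is the percentage of UMIs from the 32 NF-kB genes in clusters of the compared myeloid classes, for AKK and PBS, with exact 95% Poisson intervals. The small clusters c17.4 (cDC2-like, 35 AKK and 6 PBS cells) and c25 (neutrophil-like, 7 AKK and 6 PBS cells) are not drawn. In the main monocyte-like cluster, c4, it is 1.38% in AKK and 1.96% in PBS, and in the main macrophage-like cluster, c16, 1.45% in AKK and 1.84% in PBS.

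The lower share of monocyte-like cells was present in both of their clusters, c4 (346 AKK and 292 PBS cells, ratio 0.704) and the cycling c11.2 (39 AKK and 23 PBS cells, 0.731% in AKK and 1.04% in PBS cells, ratio 0.703). Macrophage-like cells differed by cluster. The main one, c16 (516 AKK and 601 PBS cells), had 1.45% in AKK and 1.84% in PBS cells. The shallow c13 (53 AKK and 35 PBS cells, median 1289.5 UMIs) had 0.818% in AKK and 0.487% in PBS. All 3 cDC2-like clusters had a lower share in the AKK library, with ratios from 0.661 to 0.880. They held 71 AKK and 61 PBS cells (c17.0), 42 AKK and 14 PBS cells (c17.3) and 35 AKK and 6 PBS cells (c17.4). The cluster nearest to pDC-like cells, c17.4, was 23.6% of AKK and 7.41% of PBS cDC2-like cells.

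In NK/ILC1-like cells the summed level of the brakes was higher in the AKK library, at 2081 CPM against 1597 CPM in the PBS library (ratio 1.30, 1.26 to 1.35). Tnfaip3 was at 1382 CPM in AKK and 1053 CPM in PBS (ratio 1.31, 1.26 to 1.37) and Zfp36 at 557 CPM in AKK and 416 CPM in PBS (ratio 1.34, 1.25 to 1.43), both short of 1.5-fold. The largest cluster of this class, c18, held 377 of 529 AKK and 151 of 281 PBS cells. With clusters weighted alike in both libraries the ratio of the summed share is 1.05 in place of 1.11. The part of cluster make-up in the summed level of the brakes was not tested. Bcl2a1d, at 28.2 CPM in AKK and 50.1 CPM in PBS (ratio 0.562), and Plaur, at 30.4 CPM in AKK and 46.1 CPM in PBS (ratio 0.659), were lower past 1.5-fold, and both calls were lost with clusters weighted alike in both libraries. That made 2 of 31 measured genes lower (6.45%) and 0 higher, beside 10.3% and 7.77% of all genes. In T-like cells Mir155hg alone of 32 genes was lower and 0 were higher, beside 9.97% and 6.48% of all genes, and Nfkbia was at 781 CPM in AKK and 953 CPM in PBS (ratio 0.819, 0.788 to 0.851). The Mir155hg call was lost with clusters weighted alike and with own-marker classes. Of 31 genes measured in B-like cells 0 were past 1.5-fold in either direction, beside 10.6% of all genes higher and 7.03% lower. Nfkb2 came nearest there, at 73.9 CPM in AKK and 49.5 CPM in PBS cells (ratio 1.49, 1.13 to 1.99).

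Plasma-like cells had 2 of 31 genes higher and 0 lower, beside 14.0% and 9.65% of all genes. These were Map3k8 (25.9 CPM in AKK and 13.2 CPM in PBS cells, from 142 AKK and 18 PBS UMIs, ratio 1.96, 1.20 to 3.41) and Mir155hg (56.7 CPM in AKK and 33.7 CPM in PBS, ratio 1.68, 1.23 to 2.35). Tumour/epithelial-like cells had 5 of 32 genes lower (15.6%) and 1 higher, beside 6.01% and 9.87%. Nfkbia was at 238 CPM in AKK and 408 CPM in PBS cells (ratio 0.583, 0.554 to 0.614), Tnfaip3 at 40.7 CPM in AKK and 69.5 CPM in PBS (ratio 0.586) and Nfkbib at 19.7 CPM in AKK and 31.9 CPM in PBS (ratio 0.617). Mir155hg (51 AKK and 100 PBS UMIs) and Bcl2a1d (28 AKK and 53 PBS UMIs) were the other 2. Bcl3 was higher, at 36.1 CPM in AKK and 21.7 CPM in PBS (ratio 1.66, 1.41 to 1.97).

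**Figure D5:**
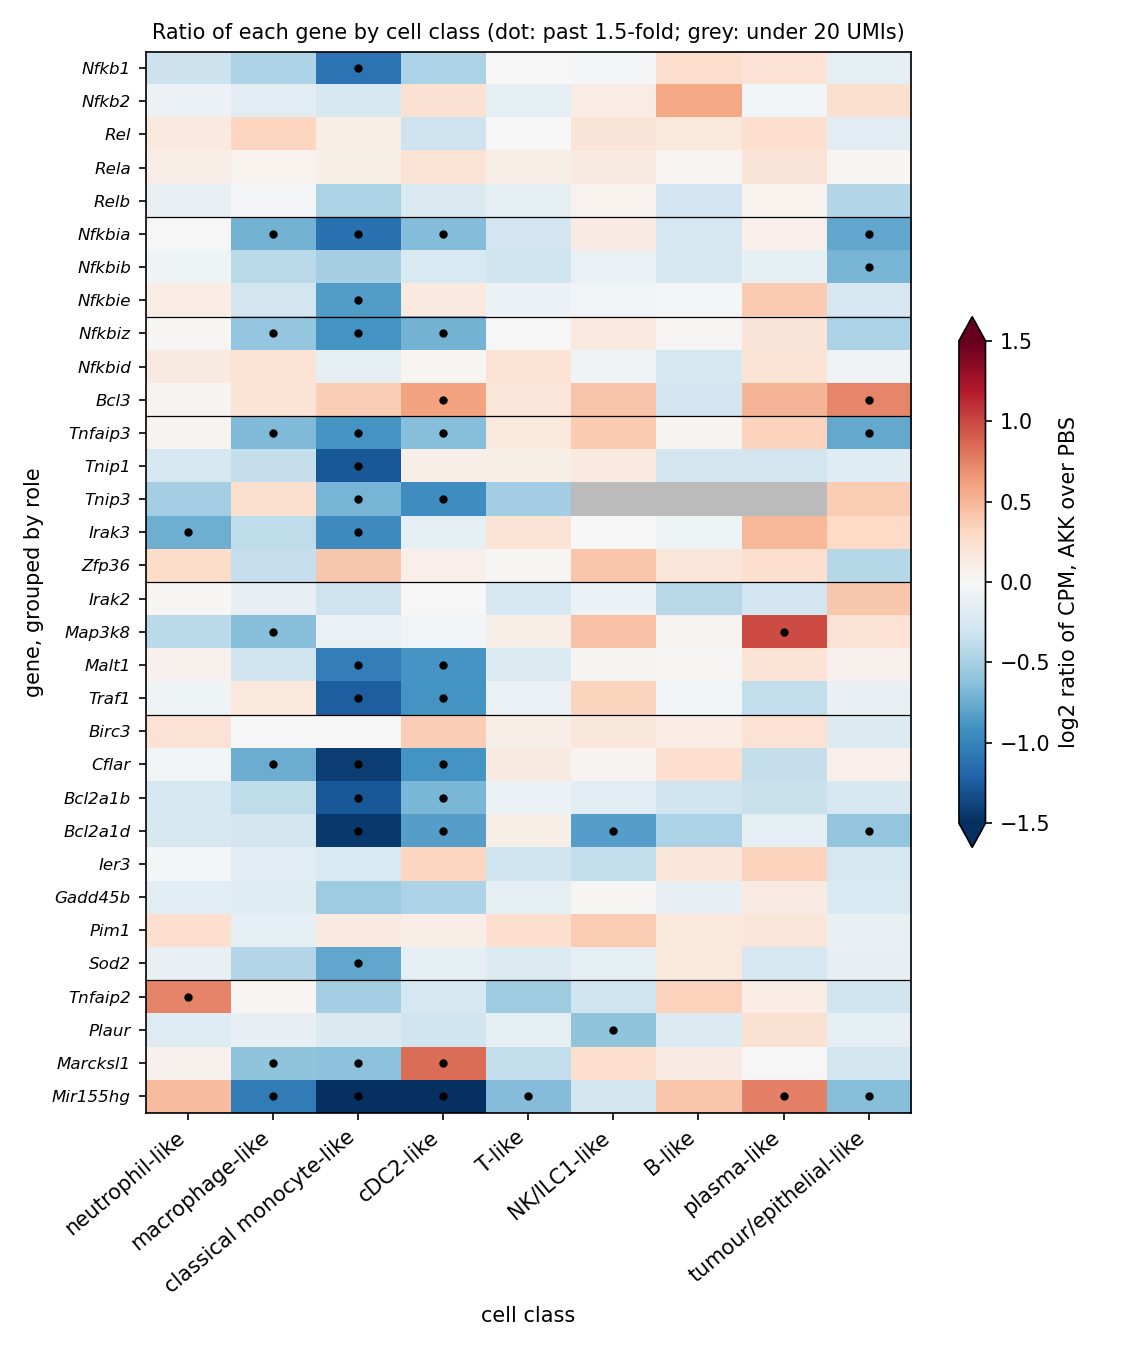
Colour gives the log2 ratio of CPM, AKK over PBS, of each of the 32 genes (rows, grouped by role) in the 9 compared cell classes (columns). Dots mark ratios past 1.5-fold and grey cells genes with under 20 UMIs. Monocyte-like cells have 16 marked genes, all lower, and B-like cells 0.

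Other genes of the pathway were read from lists of downstream and upstream genes, also chosen with earlier results of these data known. Tlr2, Cd40 and Tnfrsf1b stand on both the list of surface and enzyme targets and that of upstream receptors. Cytokine and chemokine targets had the lowest median log2 ratios, -1.24 in monocyte-like cells (16 of 22 measured lower, 0 higher), -1.01 in macrophage-like cells (19 of 26 lower, 1 higher) and -0.74 in cDC2-like cells (11 of 19 lower, 1 higher). Over all measured genes, 10.4% were lower and 14.2% higher in monocyte-like, 9.61% lower and 10.3% higher in macrophage-like, and 7.46% lower and 16.7% higher in cDC2-like cells. In neutrophil-like cells the median was 0.06, with 3 of 22 lower and 4 higher, beside 8.65% and 9.74% of all genes (median 0.04). The anti-inflammatory cytokine gene Il10 was at 8.60 CPM in AKK and 67.9 CPM in PBS monocyte-like cells (ratio 0.127, 0.0926 to 0.170). Il12b, which encodes a subunit of interleukins 12 and 23, was at 3.36 CPM in AKK and 29.6 CPM in PBS macrophage-like cells (ratio 0.114, 0.0737 to 0.168). Surface and enzyme targets were lower for 17 of 30 genes in monocyte-like cells and higher for 1, beside 10.4% and 14.2% of all genes. The higher one was the interferon-responsive transcription factor gene Irf1, at 261 CPM in AKK and 126 CPM in PBS cells (ratio 2.07, 1.89 to 2.27). In macrophage-like cells 4 of 30 were lower, close to the 9.61% of all genes, and 0 higher, beside 10.3%. The adhesion gene Vcam1 had the lowest ratio of the list there, at 25.6 CPM in AKK and 185 CPM in PBS (ratio 0.139, 0.120 to 0.160).

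For upstream kinases and adaptors the counts were below the shares of all genes and the medians close to theirs. In monocyte-like cells 2 of 30 were higher and 1 lower (median log2 ratio 0.10), beside 14.2% and 10.4% of all genes (median 0.14). In macrophage-like cells 1 of 30 was higher and 0 lower (median 0.12), beside 10.3% and 9.61% (median 0.11). Scaled to the median of all genes, the split was 1 higher and 2 lower in monocyte-like and 1 higher and 1 lower in macrophage-like cells. Map3k14, which encodes the NF-kB-inducing kinase NIK of the non-canonical pathway, was the highest in both classes. It was at 206 CPM in AKK and 108 CPM in PBS monocyte-like cells (ratio 1.91, 1.73 to 2.11) and at 95.1 CPM in AKK and 42.8 CPM in PBS macrophage-like cells (ratio 2.22, 1.98 to 2.49). Of the upstream receptors 2 of 20 were higher and 2 lower in monocyte-like cells, beside 14.2% and 10.4% of all genes. In macrophage-like cells 1 of 22 was higher and 3 lower (1 higher and 6 lower with that scaling), beside 10.3% and 9.61%. Without that scaling the receptor counts lie near or below the shares of all genes.

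Several other measures differed between the libraries in the myeloid classes. A subtraction was made for neutrophil RNA, and the part of the others in the results was not tested. The 11 neutrophil markers summed to 3970 CPM in AKK and 10161 CPM in PBS monocyte-like cells, to 3124 CPM in AKK and 2617 CPM in PBS macrophage-like cells and to 3281 CPM in AKK and 4896 CPM in PBS cDC2-like cells, with 0 of 11 at 0 in each. In macrophage-like cells the marker sum was higher in the AKK library. In neutrophil-like cells the markers summed to 77926 CPM in AKK and 98410 CPM in PBS. For RNA with the summed profile of the neutrophil-like cells of its library, these markers allow at most 1.20% of AKK and 1.56% of PBS monocyte-like UMIs. Subtraction at this limit left 16 genes lower there. RNA from a neutrophil subset with another profile was not tested. For macrophage-like cells the limits were 1.59% of AKK and 1.03% of PBS UMIs, and subtraction left 7 genes lower. Median mitochondrial UMIs were 3.34% in AKK and 4.73% in PBS monocyte-like cells, and 2.22% in AKK and 2.72% in PBS macrophage-like cells. Macrophage-like cells had a median of 12280 UMIs in the AKK and 16198.5 UMIs in the PBS library. Of 20 dissociation stress genes, which rise during tissue digestion, 7 were lower and 0 higher in macrophage-like cells (median log2 ratio -0.39), beside 9.61% and 10.3% of all genes. In monocyte-like cells 2 were lower and 1 higher (median 0.10), beside 10.4% and 14.2%, and with scaling to the median of all genes 4 lower and 1 higher.

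The macrophage-like count depended on the weighting. Its 7 genes were Mir155hg, Cflar, Nfkbia, Tnfaip3, Map3k8, Marcksl1 (98.7 CPM in AKK and 150.4 CPM in PBS cells) and Nfkbiz, with ratios from 0.485 to 0.666. It was 4 with all doublet scores kept (Mir155hg, Cflar, Nfkbia and Tnfaip3) and 2 with each cell weighted alike (Mir155hg and Cflar). The monocyte-like count stayed between 14 and 20 in all alternatives run.

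Grouping the 27 genes with a promoter entry by match gave little contrast in monocyte-like cells. Of the 12 genes with a kappaB consensus match 6 were lower past 1.5-fold (median log2 ratio -0.60), and of the 15 without 7 were (median -0.54). Nfkb1, Relb, Nfkbiz, Map3k8 and Malt1 had no promoter entry and are in neither group. Of these, Nfkb1, Nfkbiz and Malt1 were also lower past 1.5-fold. Among the promoters printed above, Nfkbia, Tnfaip3 and Nfkbie hold matches and Cflar holds none, and all 4 genes were lower in this class.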

How the data were processed

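The deposited files hold raw UMI counts per gene and barcode from 10x Genomics 3′ v3 libraries of sorted live CD45+ cells, and the authors applied no normalization, judging by the whole-number values. The matrices name Cell Ranger 7.1.0, per the file headers, and the submitters' processing notes name release 5.0.1 of Cell Ranger with the build mm10. Neither the intron setting nor the annotation release is stated, so counts may include intronic UMIs. Of 32285 identifiers 32158 (99.6%) were in GENCODE M21, whose GRCm38 assembly corresponds to mm10 and gave coordinates, and RefSeq gave promoters and microRNAs.

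Barcodes with at least 200 genes and under 15% mitochondrial UMIs were kept, which removed 93 AKK and 255 PBS barcodes. Scrublet's automatic threshold marked 1.83% of AKK and 0.0621% of PBS barcodes and was not used. Instead the highest scores were removed at 0.8% per 1000 barcodes, 340 AKK and 187 PBS cells. Cells were clustered with scanpy 1.11.5 (Python 3.11.15) on 2000 variable genes without the 32 genes or the pathway lists, 30 components, 15 neighbours and Leiden resolution 1.0, without integration. Clusters were named by the mean log2 ratio of markers, and ambiguous ones were clustered again. Rules that left shallow clusters near a second class and clusters led by granule genes of precursors unnamed (101 AKK and 230 PBS cells) were added after the clusters had been seen.

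UMIs were summed per class and library and divided by the class total (CPM). Sums have exact Poisson and ratios (AKK over PBS) exact conditional binomial 95% intervals (SciPy 1.17.1), which cover counting error only. Fewer cells of a subtype and less RNA per cell cannot be told apart in a class sum. A ratio needed 20 UMIs over both libraries, and 1.5-fold was the limit for counts. All 32 genes are named, and of the pathway lists genes came from the 3 highest and 3 lowest ratios of a class. The scripts were tested on simulated data. The genes, lists and markers were chosen with earlier results of these data known. Alternatives covered scaling, cell weighting, doublets, cell filter, class assignment, cluster make-up, neutrophil RNA, the largest gene, and low counts.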

Additional observations from a re-analysis of the deposited data

Results flagged for a closer look

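Of the 32 genes, 3 were past 1.5-fold in opposite directions in different cell classes, and with 1 library per group the difference between classes was not tested. Mir155hg had a ratio, AKK over PBS, of 0.255 in monocyte-like cells (39.6 CPM in AKK and 155 CPM in PBS) and of 1.68 in plasma-like cells (56.7 CPM in AKK and 33.7 CPM in PBS, from 311 AKK and 46 PBS UMIs). Map3k8 was at 0.644 in macrophage-like cells (59.1 CPM in AKK and 91.8 CPM in PBS) and at 1.96 in plasma-like cells (25.9 CPM in AKK and 13.2 CPM in PBS). Marcksl1 was at 0.655 in monocyte-like cells (84.7 CPM in AKK and 129 CPM in PBS) and at 1.78 in cDC2-like cells (69.0 CPM in AKK and 38.7 CPM in PBS, from 220 AKK and 78 PBS UMIs). In cDC2-like cells the clusters with the higher Marcksl1 levels, c17.3 and c17.4, also made up more of the class in the AKK library (28.4% and 23.6%) than in the PBS library (17.3% and 7.41%). The part of this make-up in the ratio was not tested beyond weighting the clusters alike, under which 0 genes were higher in this class.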

How the results depend on the processing

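No paired analysis was possible because there was 1 library per group. Among the 32 genes, no ratio past 1.5-fold crossed 1 under an alternative that gave it a value, whereas the summed shares of neutrophil-like and T-like cells did cross 1. The filter at 1000 UMIs and under 10% mitochondrial UMIs moved 0 of 285 gene ratios beyond the counting interval of the main value. Cluster weighting gave no value for B-like, plasma-like and tumour/epithelial-like cells, which had 1 cluster each. Summed-share ratios that left the main counting interval are given next, AKK over PBS, and the cause was not tested.

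With all doublet scores kept they were 1.017 (neutrophil-like), 0.798 (macrophage-like), 0.705 (monocyte-like), 1.003 (T-like), 1.075 (B-like) and 1.145 (plasma-like). With each cell weighted alike they were 0.985, 0.835 and 0.708 in neutrophil-like, macrophage-like and monocyte-like cells, 1.019 in T-like and 0.780 in tumour/epithelial-like cells. Classes from each cell's own marker score gave 1.045, 0.780, 0.700 and 0.790 in neutrophil-like, macrophage-like, monocyte-like and cDC2-like cells. Weighted clusters gave 0.960, 0.806, 0.704 and 0.666 in the same classes and 1.053 in NK/ILC1-like cells. Scaling to the median of gene ratios gave 0.999, 0.722, 0.630 and 0.698, with 1.149 in plasma-like and 0.799 in tumour/epithelial-like cells. The median gene ratio in place of the sum was 0.987, 0.826, 0.672 and 0.856, with 0.941 in T-like, 1.032 in NK/ILC1-like and 0.891 in tumour/epithelial-like cells. Subtracting neutrophil RNA gave 0.777 in macrophage-like, 1.071 in plasma-like and 0.820 in tumour/epithelial-like cells. Without the gene with the most UMIs the ratios were 1.029 (neutrophil-like) and 0.737 (monocyte-like) without Nfkbia, 0.818 (cDC2-like) without Malt1, and 1.130 (NK/ILC1-like) and 0.820 (tumour/epithelial-like) without Nfkb1.

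Counts of the 32 genes past 1.5-fold that moved by over 1.5 times were as follows. Macrophage-like cells (7) had 2 with each cell weighted alike and 4 with doublets kept. In cDC2-like cells (12) there were 7 by own marker score, 0 of them higher. Neutrophil-like cells (2) had 1 with clusters weighted. T-like cells (1) had 0 by own marker score and 0 by weighted clusters, and 3 after subtraction. NK/ILC1-like cells (2) had 1 with each cell weighted alike and 0 by weighted clusters. B-like cells (0) had 1 with each cell weighted alike, doublets kept, subtraction, or a minimum of 1 UMI. Plasma-like cells (2) had 5 after subtraction, 3 higher and 2 lower. Of the pathway lists, scaling to the median of gene ratios gave 7 surface and enzyme targets (0 higher), 2 kinases and 7 receptors (1 higher, 6 lower) in macrophage-like cells. It also gave 5 stress genes in monocyte-like cells, 1 kinase in cDC2-like cells, and 14 cytokine targets (3 higher, 11 lower) and 2 stress genes in tumour/epithelial-like cells. UMI depth limits the low genes: Tnip3 had 26 and 39 UMIs in AKK and PBS neutrophil-like cells, and its interval of 0.412 to 1.19 holds both directions.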

Other observations

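In T-like cells the cluster led by Ikzf2, Icos, Il2ra and Ctla4, genes typical of regulatory T cells, gave the 32 genes 1.07% of its UMIs in AKK and 1.19% in PBS cells (ratio 0.897). The other 2 T-like clusters had 0.769% in AKK and 0.786% in PBS, and 0.850% in AKK and 0.826% in PBS. Mir155hg was at 125 CPM in AKK and 195 CPM in PBS cells of the first cluster. Of the cytokine and chemokine targets 2 of 21 were higher and 7 lower in T-like cells as a whole (median log2 ratio -0.27), beside 6.48% and 9.97% of all genes. The highest ratio was that of the cytokine gene Il10, at 34.2 CPM in AKK and 11.2 CPM in PBS cells (ratio 3.05, 2.26 to 4.19), on the other side of 1 from its ratio in monocyte-like cells. The lowest were those of Ebi3, a subunit gene of interleukins 27 and 35 (56 AKK and 91 PBS UMIs, ratio 0.325), and Il23a, from 9 AKK and 14 PBS UMIs (ratio 0.339). In NK/ILC1-like cells 3 of 18 of these targets were higher and 4 lower (median log2 ratio -0.19), beside 7.77% and 10.3% of all genes. The chemokine genes Ccl3 and Ccl4 had the highest ratios among them. Ccl3 was at 349 CPM in AKK and 146 CPM in PBS (ratio 2.39), and Ccl4 at 1098 CPM in AKK and 521 CPM in PBS (ratio 2.11). The part of cluster make-up in these chemokine ratios was not tested.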
